A study of Mus musculus with 32 samples.

Results

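The 9 genes described here are the Notch receptors Notch1, Notch2, Notch3 and Notch4 and the ligands Dll1, Dll3, Dll4, Jag1 and Jag2, taken by symbol from the 26331 named genes of the deposited tables. Each symbol matched 1 gene, and all 9 genes passed the filter on low counts in both genetic backgrounds. Their RNA was followed in 32 libraries of the embryonic mouse forebrain in which the dose of Kat6b, the gene of a histone acetyltransferase, was changed.

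Notch signalling passes between touching cells. A ligand of the Delta-like or Jagged family on one cell binds a Notch receptor on its neighbour, the receptor is cut, and its intracellular part enters the nucleus, where it joins the DNA-binding protein RBPJ and switches on genes such as Hes1 and Hes5. In the developing cortex, Delta-like ligands are made by cells that are starting to become neurons, and they keep the adjoining radial glia, the neural stem cells of this tissue, from differentiating. Notch4 and Dll4 are best known from blood vessels, and Notch3 from the mural cells around vessels as well as from neural progenitors.

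The libraries form 8 groups. In C57BL/6 mice, the E15.5 cortex (embryonic day) was sampled from 5 Kat6b KO embryos, which are Kat6b-/- per the design text, and from 5 wild-type embryos. The E12.5 dorsal telencephalon, from which the cortex forms, was sampled from 3 Kat6b KO and 3 wild-type embryos of the same strain. In mice of a mixed FVBxBALB/c background, 4 libraries each came from Tg(Kat6b) embryos, which carry a transgene that raises Kat6b RNA, and from their wild-type controls, at E15.5 and again at E12.5. Per the design text the mixed background was chosen because transgenic animals did not survive on inbred strains, and the promoter of the transgene is not stated in the labels. The C57BL/6 libraries were sequenced as batch 2 and the FVBxBALB/c libraries as batch 1, so the effect of background cannot be told apart from that of batch, and comparisons are made within a background unless stated. Likewise the E15.5 and E12.5 labels name different dissections, so age and dissection cannot be told apart.

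Each library held between 10383066 and 49508669 counts on named genes. In 1 library 17.8% of these counts fell on the ribosomal RNA gene Rn45s, against 0.667% in the next highest. E15.5 KO replicate 3 had the highest share of counts on rows with no gene name, at 2.0%. Kat6b stood at 24.3 ± 1.99 RPKM in E15.5 KO cortex and 23.7 ± 2.44 in wild type (SD, n = 5 each), where RPKM is the count scaled to the library's effective total and divided by the counted gene length. It stood at 20.9 ± 4.76 RPKM in E12.5 KO tissue and 23.3 ± 2.83 in wild type (SD, n = 3 each), so whole-gene counts do not check the KO label. In Tg(Kat6b) it stood at 89.2 ± 11.2 RPKM at E15.5 against 24.6 ± 4.42 in wild type, and at 73.8 ± 7.36 RPKM at E12.5 against 23.9 ± 2.75 (SD, n = 4 each). The neuronal markers, summed over 10 genes, ran from 8610 to 10900 CPM (the count scaled to the library's effective total, with no length) in the E15.5 libraries and from 2970 to 5310 CPM at E12.5, and no neuronal marker was at 0 in any group. The E15.5 C57BL/6 replicates 5 have conflicting labels (the KO one names the E12.5 tissue), but both scored with the E15.5 group on principal component 1, at 41.1 for KO and 40.1 for wild type, against -85.2 to -42.8 for E12.5. E15.5 KO replicates 3 and 4 stood apart on component 2. So did E12.5 FVBxBALB/c wild-type replicate 4, at -43.5 on the second component of its background against 14.1 to 33.3 in its group, and its erythroid markers summed to 9570 CPM against 2350 to 2570. Leaving out KO replicate 3 or 4, or that wild-type library, changed no member's call, and leaving out both replicates 5 changed that of Notch4 in KO alone.

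The sequences just before the transcription starts of 4 members are shown because 3 of them, Dll1, Dll3 and Jag1, which were all lower at E15.5 than at E12.5, hold the same proneural-type E-box, CAGCTG, and the Notch1 window is set beside them as a member that was also lower but has no such match. Each run is the 250 bases before the annotated start in RefSeq (GRCm38.p6, the mm10 build), written 5′ to 3′ on the gene's strand, with the motif in capitals. The windows are chr17:15376933-15377182 for Dll1 (the outer of its 2 annotated starts), chr7:28301786-28302035 for Dll3, chr2:137116521-137116770 for Jag1 and chr2:26503823-26504072 for Notch1, all on the minus strand.
Dll1: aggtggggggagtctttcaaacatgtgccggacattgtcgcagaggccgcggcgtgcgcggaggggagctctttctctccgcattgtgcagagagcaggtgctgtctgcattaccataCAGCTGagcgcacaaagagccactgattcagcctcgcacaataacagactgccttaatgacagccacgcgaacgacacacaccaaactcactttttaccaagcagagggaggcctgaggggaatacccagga
Dll3: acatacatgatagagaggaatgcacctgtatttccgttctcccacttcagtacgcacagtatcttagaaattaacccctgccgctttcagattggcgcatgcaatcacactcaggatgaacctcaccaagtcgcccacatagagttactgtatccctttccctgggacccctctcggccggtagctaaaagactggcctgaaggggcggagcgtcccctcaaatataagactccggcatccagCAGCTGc
Jag1: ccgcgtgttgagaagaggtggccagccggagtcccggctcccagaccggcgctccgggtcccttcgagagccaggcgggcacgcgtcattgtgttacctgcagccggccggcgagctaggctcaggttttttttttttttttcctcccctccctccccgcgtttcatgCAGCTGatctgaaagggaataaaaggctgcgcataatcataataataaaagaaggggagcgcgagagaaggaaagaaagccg
Notch1: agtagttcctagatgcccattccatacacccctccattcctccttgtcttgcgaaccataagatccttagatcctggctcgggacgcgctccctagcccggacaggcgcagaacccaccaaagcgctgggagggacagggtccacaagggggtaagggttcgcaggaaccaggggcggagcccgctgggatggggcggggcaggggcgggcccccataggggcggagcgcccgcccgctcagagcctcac
The motif begins 132 bases before the start in Dll1, 7 before it in Dll3 and 82 before it in Jag1. Both strands were searched for CAGCTG, for CATCTG and for TGGGAA, the core that RBPJ binds, and CAGCTG reads the same on both strands. CAGCTG was in 13% of the 32841 promoter windows of this length, CATCTG in 14.4% and TGGGAA in 21.6%. No member window held CATCTG or TGGGAA, and CAGCTG was in neither the window of the inner Dll1 start nor that of any of the other 6 members. Those 6 include Notch3, the receptor with the largest fall over age, and Notch4, also called lower at E15.5 in all 4 genotype groups. A match in these letters is a description of the window and not evidence of binding.

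Compared per gene length, the most abundant of the 9 genes at both ages was Dll1, a ligand that drives lateral inhibition (mm10 chromosome 17, 15367354 to 15376932, minus strand). Averaged over the 4 groups of an age, it stood at 16.8 RPKM at E15.5 and 39.5 RPKM at E12.5. Next was Notch1, the main receptor of cortical progenitors (chromosome 2, 26457902 to 26503822, minus strand), at 14.9 RPKM at E15.5 and 22.6 at E12.5. Dll1 was above Notch1 in 17 of 18 E15.5 libraries and in 14 of 14 E12.5 libraries.

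The order in the middle of the family differed between the ages. At E15.5 Dll3 (8.12 RPKM), Notch2 (8.03), Jag2 (6.58), Notch3 (5.64) and Jag1 (4.31) followed. At E12.5 it was Dll3 (17.5 RPKM), Notch3 (16.3), Notch2 (9.27), Jag1 (7.35) and Jag2 (4.80). Neighbours in this order were not all separated: Dll3 was above Notch2 in 11 of 18 E15.5 libraries, and above Notch3 in 9 of 14 E12.5 libraries. Notch4 and Dll4 were the weakest at both ages, at 1.94 and 1.61 RPKM at E15.5 and 2.50 and 1.55 RPKM at E12.5, and with few counts (39 to 317 for Dll4 per library) their values are the least precise.

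Within libraries, some ratios between members differed between the ages. Notch1 over Notch3 was above 1 at both ages. It was 2.05 to 3.18 (median 2.71) in 18 E15.5 libraries and 1.15 to 1.73 (median 1.43) in 14 E12.5 libraries, with no overlap. Jag2 over Jag1 in RPKM was above 1 in 17 of 18 E15.5 libraries (0.833 to 2.26, median 1.61) and in 0 of 14 E12.5 libraries (0.411 to 0.939, median 0.616). Notch3 over Notch2 was above 1 in 0 of 18 E15.5 libraries (0.466 to 0.988, median 0.733) and in 14 of 14 E12.5 libraries (1.16 to 2.40, median 1.79). Whether a ratio passes 1 depends on the counted gene lengths: in CPM, Jag2 was below Jag1 in 7 of 8 FVBxBALB/c E15.5 libraries and in 0 of 10 C57BL/6 E15.5 libraries. The comparison of a ratio between the ages does not depend on them.

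**Figure D1:**
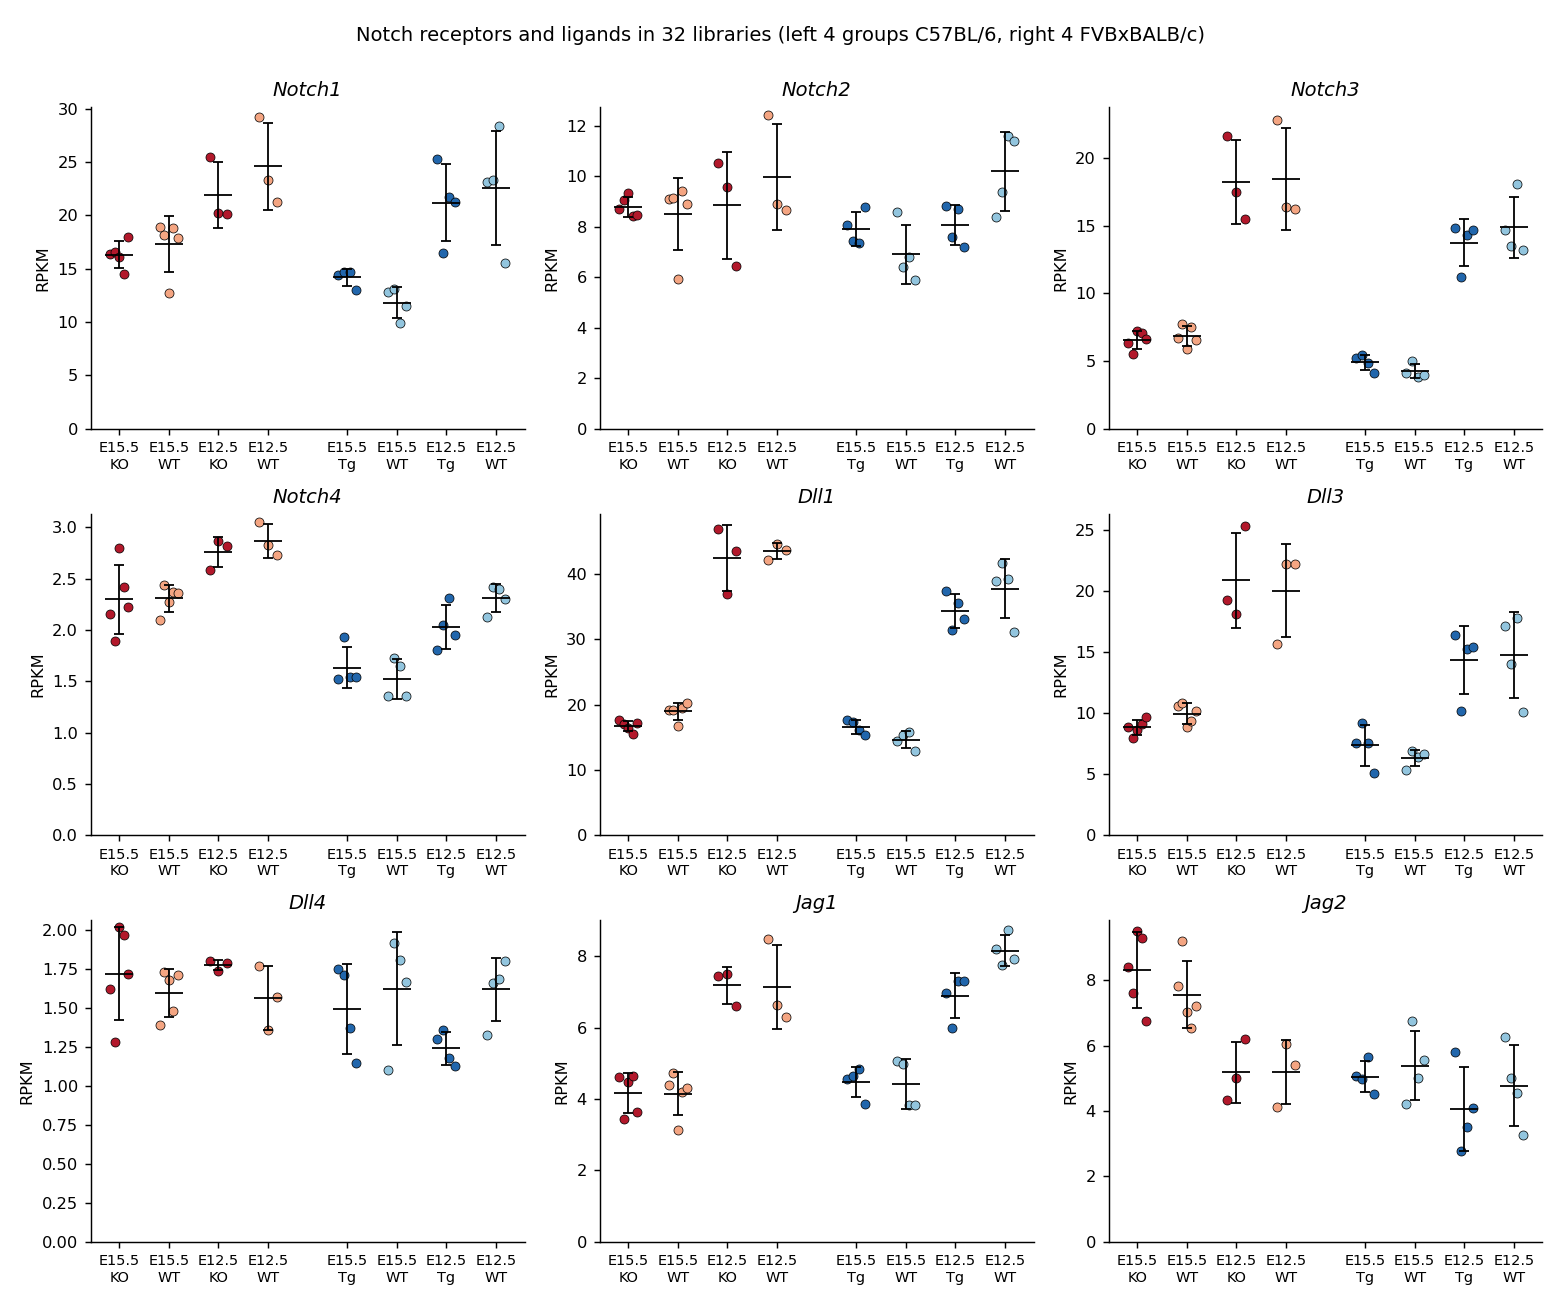
RPKM of each receptor and ligand (vertical axes, from 0) in each of the 32 libraries, with 1 panel per gene. Points are libraries and the black bar is the group mean ± SD. Notch3, Dll1, Dll3 and Jag1 lie lower at E15.5 than at E12.5 in every genotype with no overlap, Dll4 lies at 1.10 to 2.02 RPKM at E15.5 and 1.13 to 1.80 at E12.5, and KO or Tg(Kat6b) points lie among or near their wild types.

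Most of the family fell over age. By edgeR's quasi-likelihood test with Benjamini-Hochberg adjustment over all genes, called at an adjusted p below 0.05, 6 of 9 members were lower and 1 was higher at E15.5 than at E12.5 in Kat6b KO tissue, where 27% of all tested genes were called lower and 29.4% higher. In C57BL/6 wild type 6 were lower and 1 higher, with 28.2% of all genes lower and 28.6% higher. In Tg(Kat6b) 6 were lower and 0 higher, with 22.5% lower and 23.8% higher. In FVBxBALB/c wild type 7 were lower and 0 higher, with 25.1% lower and 25.1% higher. The median log2 fold change of the 9 was -0.43 in KO, -0.51 in C57BL/6 wild type, -0.58 in Tg(Kat6b) and -0.88 in FVBxBALB/c wild type, and the median of all tested genes lay between -0.029 and -0.00804. Markers of the tissue's own cells moved with age as well. Of 10 apical progenitor markers, 6 were lower and 3 higher in KO, and 7 lower and 2 higher in each of the other 3 groups (median log2 -0.80 to -0.61), and 10 of 10 neuronal markers were higher in all 4 groups (median 1.15 to 1.49). So did markers of neighbouring tissue: of 11 hem and choroid plexus markers, 7 were lower in KO, 8 in C57BL/6 wild type, 11 in Tg(Kat6b) and 9 in FVBxBALB/c wild type, with 0 higher in each. Their sum, however, did not fall in every library. It ranged over 17.5 to 651 CPM at E15.5 and 106 to 373 CPM at E12.5. At E15.5 it was 528, 507 and 519 CPM in KO replicates 1, 3 and 4. It was 651 CPM in C57BL/6 wild-type replicate 3, 361 in replicate 4, and 467 in FVBxBALB/c wild-type replicate 3. Diencephalon, midbrain and hindbrain markers were lower for 5 of 7 tested in both C57BL/6 groups and 5 of 5 in both FVBxBALB/c groups (median log2 -2.63 to -1.70). Of 8 erythroid markers, 7 were lower and 1 higher in both C57BL/6 groups, 4 lower and 1 higher in Tg(Kat6b), and 5 lower and 0 higher in FVBxBALB/c wild type. The summed apical progenitor level ranged over 1940 to 2780 CPM at E15.5 and 2720 to 3750 CPM at E12.5. Intermediate progenitor markers did not fall as a list. Of 6, 3 were higher in each group, and 3 were lower in KO, 2 in C57BL/6 wild type and 1 in each FVBxBALB/c group. Their median log2 fold change was 0.08 to 0.31, and their sum was 914 to 1410 CPM at E15.5 and 772 to 1030 CPM at E12.5. The part of any of these marker lists in the members' changes was not tested. In bulk tissue, fewer cells that make an RNA and less of it per cell cannot be told apart.

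Among the receptors Notch3, found in neural progenitors and vascular mural cells (chromosome 17, 32120820 to 32166896, minus strand), had the largest fall in all 4 groups. In KO embryos its RPKM was 6.35, 5.50, 7.20, 7.09 and 6.64 at E15.5 against 21.6, 17.5 and 15.55 at E12.5. In C57BL/6 wild type it was 6.67, 7.72, 5.87, 7.50 and 6.57 at E15.5 against 22.8, 16.4 and 16.2 at E12.5. Every E15.5 library was below every E12.5 library, with a wide gap between them. In Tg(Kat6b) Notch3 stood at 5.21, 5.42, 4.88 and 4.09 RPKM at E15.5 against 14.8, 11.2, 14.3 and 14.7 at E12.5. In FVBxBALB/c wild type it stood at 4.15, 5.01, 3.86 and 3.95 RPKM against 14.7, 13.5, 18.1 and 13.2. These groups did not overlap either. The log2 fold change was -1.48 (SE 0.129, adjusted p = 9.24e-08) in KO and -1.43 (SE 0.129, adjusted p = 1.66e-07) in C57BL/6 wild type by edgeR. It was -1.49 (SE 0.127, adjusted p = 1.64e-07) in Tg(Kat6b) and -1.81 (SE 0.128, adjusted p = 2.04e-08) in FVBxBALB/c wild type, which makes Notch3 2.69- to 3.50-fold lower at E15.5. Of the 10 pericyte markers, 5 were higher and 1 lower in KO, 4 and 1 in C57BL/6 wild type, 6 and 1 in Tg(Kat6b), and 5 and 3 in FVBxBALB/c wild type. Of the 12 meningeal and mesenchymal markers, 9 to 11 were lower in each group and 0 higher. The summed level of the pericyte markers ranged over 80.5 to 156 CPM at E15.5 and 76.8 to 170 CPM at E12.5, and that of the meningeal and mesenchymal markers over 23.3 to 187 CPM at E15.5 and 216 to 2070 CPM at E12.5. No marker of either list was at 0 in any group, and their part in the fall of Notch3 or of any other member was not tested.

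Notch1 fell less. In KO its RPKM was 16.4, 16.6, 16.1, 14.5 and 18 at E15.5 against 25.5, 20.2 and 20.1 at E12.5. In C57BL/6 wild type it was 18.9, 18.2, 12.7, 18.8 and 17.9 against 29.2, 23.3 and 21.3. No E15.5 library reached the lowest E12.5 library of its genotype. In Tg(Kat6b) Notch1 was at 14.4, 14.7, 14.7 and 13 RPKM at E15.5 against 25.3, 16.5, 21.7 and 21.3 at E12.5, and in FVBxBALB/c wild type at 12.8, 13.1, 9.88 and 11.5 RPKM against 23.1, 23.3, 28.4 and 15.514. Here too the ages were separate, although Tg(Kat6b) replicate 2 and wild-type replicate 4 at E12.5 came close to the E15.5 range. The log2 fold changes were -0.43 (SE 0.128, adjusted p = 0.00908 by edgeR) in KO, -0.51 (SE 0.128, adjusted p = 0.00273) in C57BL/6 wild type, -0.58 (SE 0.155, adjusted p = 0.0059) in Tg(Kat6b) and -0.93 (SE 0.156, adjusted p = 0.000114) in FVBxBALB/c wild type. Without E12.5 KO replicate 1 the KO value was -0.31 with an adjusted p of 0.0743, past the threshold no longer.

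Notch2, a receptor also found in cortical progenitors (chromosome 3, 98013538 to 98150367, plus strand), fell in 1 group only by the threshold. In FVBxBALB/c wild type its RPKM was 8.57, 6.41, 6.78 and 5.88 at E15.5 against 8.40, 9.38, 11.6 and 11.4 at E12.5. The fold change there was -0.56 on the log2 scale (SE 0.124, adjusted p = 0.00119 by edgeR), and the groups overlapped through E15.5 replicate 1. The log2 fold changes of the other 3 groups were -0.01 (95% interval -0.35 to 0.34) in KO, -0.23 (-0.58 to 0.11) in C57BL/6 wild type and -0.03 (-0.29 to 0.23) in Tg(Kat6b), none of them called. The tests of the difference for the wild types and for Tg(Kat6b) are given with the other differences.

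Notch4, an endothelial receptor (chromosome 17, 34564286 to 34588543, plus strand), was low and fell slightly. Its RPKM ran from 1.89 to 2.80 in E15.5 KO against 2.59 to 2.87 at E12.5, and from 2.10 to 2.44 in E15.5 C57BL/6 wild type against 2.73 to 3.05. It ran from 1.52 to 1.93 in E15.5 Tg(Kat6b) against 1.81 to 2.31 at E12.5, and from 1.36 to 1.73 in E15.5 FVBxBALB/c wild type against 2.13 to 2.42. Ages were separate in both wild types and overlapped in KO and Tg(Kat6b). The log2 fold changes were -0.27 (adjusted p = 0.0401 by edgeR) in KO, -0.31 (0.0178) in C57BL/6 wild type, -0.31 (0.0493) in Tg(Kat6b) and -0.60 (0.000631) in FVBxBALB/c wild type. The KO call was lost without E12.5 replicates 3 or 4 or without E15.5 replicates 1, 2 or 5 (adjusted p 0.0702 to 0.124), the Tg(Kat6b) call without E12.5 replicates 2, 3 or 4 or E15.5 replicates 1, 3 or 4 (0.0677 to 0.145), and the C57BL/6 wild-type call without E12.5 replicate 1 (0.075). The KO and Tg(Kat6b) calls were also lost with no filter on low counts or a fit of only the groups compared, and the Tg(Kat6b) call by limma-voom (adjusted p 0.0503 to 0.0818). The 15 endothelial markers moved in the same direction: 8 were called lower and 1 higher in KO (median -0.41), 9 and 1 in C57BL/6 wild type (-0.60), 8 and 1 in Tg(Kat6b) (-0.58) and 11 and 1 in FVBxBALB/c wild type (-0.81). Their summed level ranged over 190 to 330 CPM at E15.5 and 260 to 489 CPM at E12.5, with no marker at 0. Their part in the result was not tested.

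Among the ligands, Dll1 had the smallest adjusted p of any member in 3 of the 4 groups. Its RPKM in KO was 17.6, 17.0, 16.4, 15.502 and 17.2 at E15.5 against 47.0, 37.0 and 43.5 at E12.5. In C57BL/6 wild type it was 19.2, 19.2, 16.8, 19.5 and 20.2 against 42.2, 44.7 and 43.7. The E15.5 values sat at less than the lowest E12.5 value in every library, and the spread was widest in E12.5 KO. In Tg(Kat6b) Dll1 was at 17.7, 17.3, 16.2 and 15.3 RPKM at E15.5 against 37.4, 31.4, 35.6 and 33.1 at E12.5, and in FVBxBALB/c wild type at 14.5, 15.3, 15.9 and 12.9 RPKM against 39.0, 41.7, 39.2 and 31.2. Both groups again were separate. The log2 fold change was -1.34 (SE 0.0763, adjusted p = 1.23e-09 by edgeR) in KO, -1.20 (SE 0.0763, adjusted p = 5.96e-09) in C57BL/6 wild type, -1.05 (SE 0.0959, adjusted p = 3.37e-07) in Tg(Kat6b) and -1.37 (SE 0.0967, adjusted p = 1.94e-08) in FVBxBALB/c wild type. The promoter window of Dll1 printed above holds CAGCTG.

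Dll3, a divergent ligand that in mouse cells blocks Notch signalling in the cell that makes it rather than activating it in neighbours (chromosome 7, 28293555 to 28301785, minus strand), fell in the same way. It averaged 8.82 ± 0.631 RPKM in E15.5 KO against 20.8 ± 3.91 at E12.5, and 9.96 ± 0.841 RPKM in E15.5 C57BL/6 wild type against 20 ± 3.79. It averaged 7.36 ± 1.68 RPKM in E15.5 Tg(Kat6b) against 14.3 ± 2.76 at E12.5, and 6.33 ± 0.678 RPKM in E15.5 FVBxBALB/c wild type against 14.8 ± 3.51 (SD, n = 5 against 3 in C57BL/6 and 4 against 4 in FVBxBALB/c). Within every genotype the 2 ages did not overlap, and the spread was wider at E12.5. By edgeR the log2 fold changes were -1.24 (SE 0.124, adjusted p = 3.73e-07) in KO, -1 (SE 0.124, adjusted p = 3.99e-06) in C57BL/6 wild type, -0.95 (SE 0.196, adjusted p = 0.000828) in Tg(Kat6b) and -1.21 (SE 0.198, adjusted p = 8.81e-05) in FVBxBALB/c wild type.

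Jag1, a ligand of progenitors and vessels (chromosome 2, 137081451 to 137116520, minus strand), fell and Jag2, another Jagged ligand (chromosome 12, 112907803 to 112929812, minus strand), did not. In KO Jag1 was at 4.61, 3.45, 4.49, 4.64 and 3.65 RPKM at E15.5 against 7.44, 7.52 and 6.60 at E12.5. In C57BL/6 wild type it was at 4.39, 4.72, 3.12, 4.19 and 4.32 RPKM against 8.50, 6.64 and 6.31. Every E15.5 library was under every E12.5 library of its genotype. In Tg(Kat6b) it was at 4.56, 4.65, 4.85 and 3.87 RPKM at E15.5 against 6.98, 6.00, 7.31 and 7.32, and in FVBxBALB/c wild type at 5.08, 4.98, 3.83 and 3.82 RPKM against 8.20, 7.75, 8.74 and 7.93. Both were separate. The log2 fold changes were -0.79, -0.78, -0.62 and -0.88 in KO, C57BL/6 wild type, Tg(Kat6b) and FVBxBALB/c wild type, with adjusted p of 8.56e-05, 9.31e-05, 0.000214 and 5.75e-06 by edgeR.

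Jag2 went the other way in C57BL/6. In KO its RPKM was 8.41, 7.62, 9.51, 9.29 and 6.76 at E15.5 against 4.35, 5.00 and 6.20 at E12.5. In C57BL/6 wild type it was 7.83, 9.21, 7.04, 6.53 and 7.22 against 4.12, 6.06 and 5.40. All E15.5 libraries were above all E12.5 libraries of the same genotype, which gave log2 fold changes of 0.68 (SE 0.152, adjusted p = 0.00113 by edgeR) in KO and 0.54 (SE 0.152, adjusted p = 0.00589) in wild type. In FVBxBALB/c the ages overlapped: Jag2 ran from 4.52 to 5.65 RPKM in E15.5 Tg(Kat6b) against 2.79 to 5.81 at E12.5, and from 4.23 to 6.74 in E15.5 wild type against 3.26 to 6.27. Its log2 fold changes there were 0.32 (95% interval -0.14 to 0.77, adjusted p = 0.249 by edgeR) in Tg(Kat6b) and 0.19 (-0.27 to 0.64, adjusted p = 0.49) in wild type. Without E12.5 Tg(Kat6b) replicate 1, where Jag2 stood highest of its group at 5.81 RPKM, the Tg(Kat6b) value was 0.54 with an adjusted p of 0.0338.

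Dll4, an endothelial tip-cell ligand (chromosome 2, 119325784 to 119335666, plus strand), showed no called change over age in any group. Its RPKM ran from 1.28 to 2.02 in E15.5 KO against 1.74 to 1.80 at E12.5, and from 1.39 to 1.73 in E15.5 C57BL/6 wild type against 1.36 to 1.77. In FVBxBALB/c it ran from 1.15 to 1.75 in E15.5 Tg(Kat6b) against 1.13 to 1.36 at E12.5, and from 1.10 to 1.92 in E15.5 wild type against 1.33 to 1.80. All 4 pairs of groups overlapped. The log2 fold changes, with 95% intervals, were -0.05 (-0.36 to 0.27) in KO, 0.04 (-0.28 to 0.36) in C57BL/6 wild type, 0.27 (-0.13 to 0.67) in Tg(Kat6b) and 0.01 (-0.38 to 0.40) in FVBxBALB/c wild type.

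**Figure D2:**
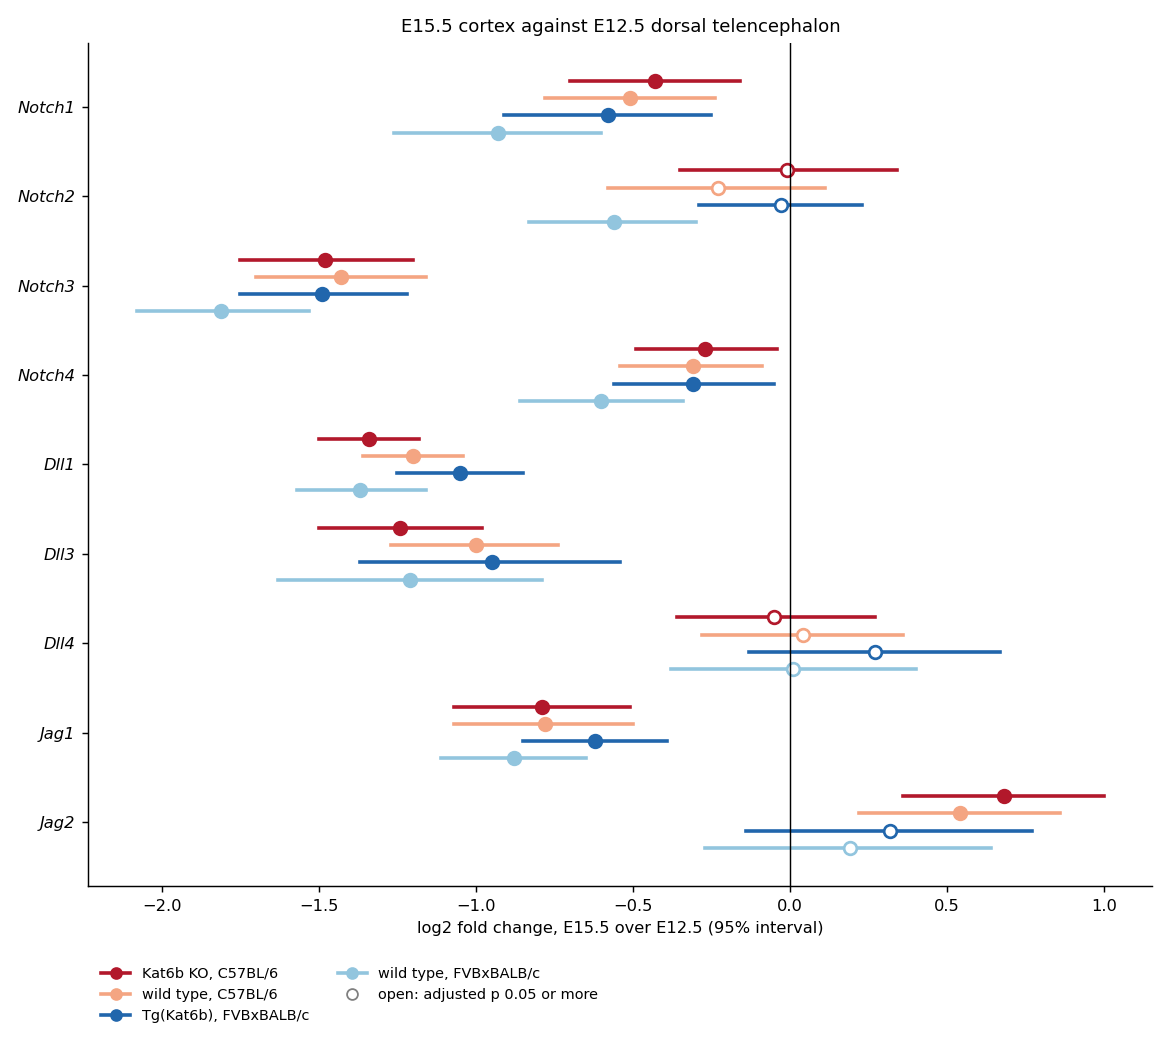
Log2 fold change of each member at E15.5 over E12.5 (horizontal axis) in the 4 genotypes, with 95% intervals. Filled points passed an adjusted p of 0.05 by edgeR and open points did not. Notch3, Dll1, Dll3 and Jag1 lie left of 0 in all 4 groups, Jag2 lies right of 0, and Dll4 lies near 0.

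The age changes were set against each other between the 2 wild types, in a model of all 32 libraries. No member was called in the difference of the C57BL/6 age change minus the FVBxBALB/c age change, where 0.0305% of 16399 genes were called, 0 members had an unadjusted p below 0.05 by edgeR against 6.62% of all genes, and DESeq2 and limma-voom called 0. All 9 differences were above 0 (8 or 9 when 1 library was left out), with 50.5% of all genes below 0, and the largest were Notch1 at 0.40 (95% interval -0.03 to 0.84) and Notch3 at 0.36 (-0.03 to 0.74). The Notch2 difference was 0.31 (-0.11 to 0.74), so a distinct age course of Notch2 in the 2 backgrounds was not shown.

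Around the members, the rest of the pathway was read from lists of 47 genes, of which 46 were in the files and 45 were tested. The target genes of Notch signalling fell together: all 6 (Hes1, Hes5, Hey1, Hey2, Heyl and Nrarp) were called lower at E15.5 in all 4 groups. Their median log2 fold change was -0.99 in KO, -1.05 in C57BL/6 wild type, -0.61 in Tg(Kat6b) and -0.79 in FVBxBALB/c wild type. Hes5, a repressor that holds progenitors undifferentiated, stood at 27.6 RPKM in E15.5 KO against 88.5 at E12.5 (log2 -1.68, SE 0.121, adjusted p = 1.29e-08 by edgeR) and at 21.0 RPKM in E15.5 FVBxBALB/c wild type against 43.9 (log2 -1.07, SE 0.175, adjusted p = 9.23e-05). Hes1 stood at 18.1 RPKM in E15.5 C57BL/6 wild type against 44.3 (log2 -1.29, SE 0.108, adjusted p = 7.07e-08) and at 27.2 RPKM in E15.5 Tg(Kat6b) against 37.1 (log2 -0.45, SE 0.142, adjusted p = 0.0164). The nuclear protein RBPJ is the DNA-binding partner of the receptors, and Rbpj itself was not called in any group, at -0.11, -0.13, 0.15 and 0.34 on the log2 scale in KO, C57BL/6 wild type, Tg(Kat6b) and FVBxBALB/c wild type (adjusted p 0.107 to 0.608). Of the 6 genes of the nuclear complex, 1 was lower and 1 higher in KO, 3 and 1 in C57BL/6 wild type, 2 and 0 in Tg(Kat6b), and 3 and 0 in FVBxBALB/c wild type.

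Genes that make or modify the ligand and receptor signal changed in both directions. Of the 4 ubiquitin ligases that start ligand endocytosis, Mib1 fell and Mib2, Neurl1a and Neurl1b rose in all 4 groups. Mib1, the main one for Delta-like and Jagged ligands, was at 11.2 RPKM in E15.5 KO against 16.3 at E12.5 (log2 -0.54, adjusted p = 0.00474 by edgeR) and at 11.1 RPKM in E15.5 C57BL/6 wild type against 22.3 (log2 -1.01, adjusted p = 1.82e-05). Neurl1b was at 3.99 RPKM in E15.5 KO against 0.886 (log2 2.16, adjusted p = 1.28e-07). Of the 5 enzymes that sugar-modify the receptors, Pofut1, Lfng and Mfng fell and Rfng rose in all 4 groups, and Poglut1 fell in the C57BL/6 groups alone by the threshold (adjusted p = 0.0312 in KO and 0.0267 in wild type, against 0.0817 in Tg(Kat6b) and 0.19 in FVBxBALB/c wild type). Lfng, which alters the response to Jagged and Delta-like ligands, stood at 16.8 RPKM in E15.5 KO against 25.5 at E12.5 and at 11.1 RPKM in E15.5 FVBxBALB/c wild type against 17.7.

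Of the 10 receptor-cleavage genes, 3 rose and 1 fell in KO, 3 and 2 in C57BL/6 wild type, 2 and 1 in Tg(Kat6b), and 3 and 1 in FVBxBALB/c wild type. Over all genes 23.8% to 29.4% rose and 22.5% to 28.2% fell, and the counts of such small lists are descriptions beside those shares. Adam17, a protease of the receptor ectodomain, was the one lower in all 4 groups, at -0.62 to -0.82 on the log2 scale. Aph1b, a subunit of gamma-secretase, was higher in all 4 groups, at 0.65 to 0.88 on the log2 scale, but it may share reads with the near-identical Aph1c, so its value is uncertain. Of the 8 inhibitors and turnover genes, 2 were higher and 3 lower in KO, 2 and 3 in C57BL/6 wild type, 2 and 2 in Tg(Kat6b), and 3 and 3 in FVBxBALB/c wild type. Dtx1, a regulator of receptor turnover, was higher by 1.76 to 1.82 on the log2 scale in all 4 groups, and Numb, which antagonises Notch, was at -0.72 to -0.42 in all 4 groups. The non-canonical ligands Dner and Dlk2 were higher in all 4 groups, and Dlk1 was lower in all but C57BL/6 wild type (log2 -1.14, adjusted p = 0.0979). Neurog1, a proneural gene, was lower in all 4 groups, and Neurog2, another, was called lower in both C57BL/6 groups and not called in the FVBxBALB/c groups.

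**Figure D3:**
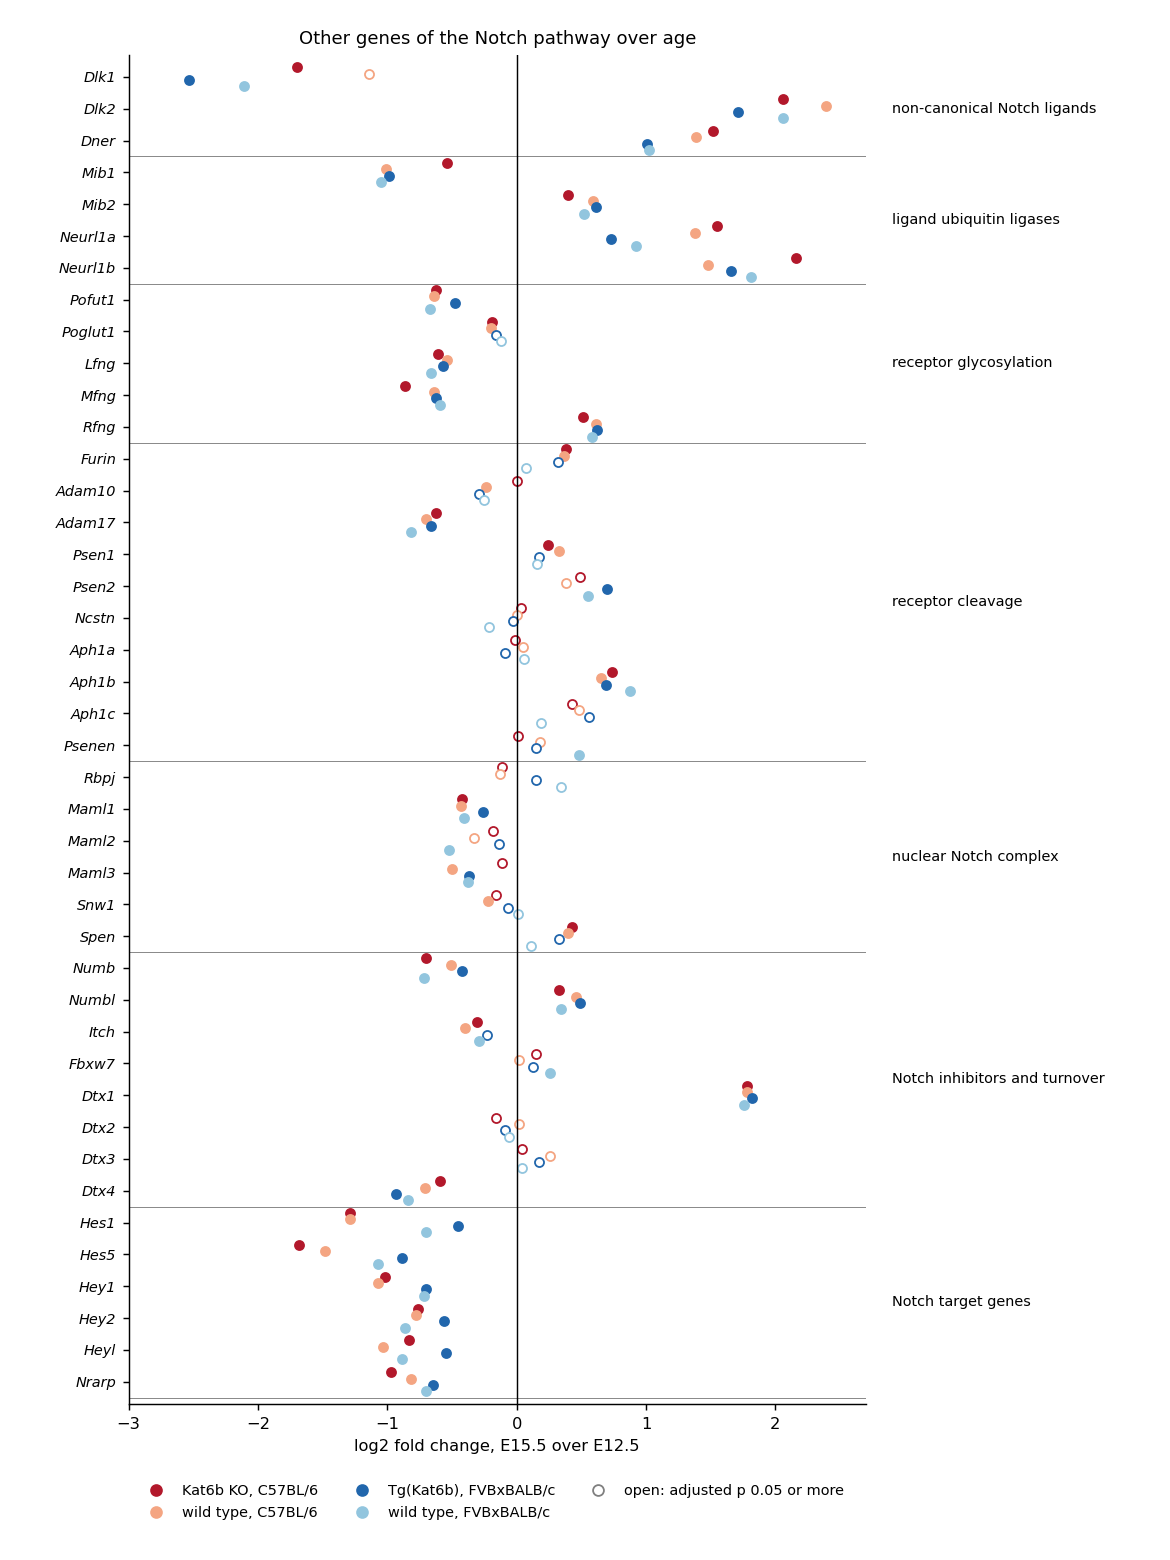
Log2 fold change at E15.5 over E12.5 (horizontal axis) of the other pathway genes tested, proneural genes left out, grouped by list, in the 4 genotypes. Filled points passed an adjusted p of 0.05 by edgeR. The Notch target genes lie left of 0 in every group.

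The study's question, the effect of Kat6b, was addressed by genotype within background and age. No member was called in any of the 4 genotype comparisons by edgeR, and DESeq2 and limma-voom also called 0. For KO against wild type at E12.5, 0 of 9 members had an unadjusted p below 0.05, where 0.0062% of all genes were called and 5.22% had such a p. At E15.5, 1 of 9 had one (0% called, 2.83% with such a p). For Tg(Kat6b) against wild type at E12.5, 3 of 9 had one (0.0129% called, 6.68% with such a p), and at E15.5, 0 of 9 (0.0129% called, 2.22%). The intervals bound what could have been missed. In KO at E12.5 the lowest and highest 95% limits of any member were 0.678-fold (Notch2) and 1.45-fold (Dll4) of wild type, and at E15.5 they were 0.753-fold (Dll3) and 1.33-fold (Jag2). In Tg(Kat6b) at E12.5 they were 0.585-fold (Dll4) and 1.28-fold (Dll3), and at E15.5 0.679-fold (Jag2) and 1.57-fold (Dll3).

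The smallest p for any member in the KO comparisons was for Dll1 in E15.5 cortex, with the values listed above. Of the 5 KO libraries, 3 lay within the wild-type range of 16.8 to 20.2 RPKM and 2, replicates 3 and 4, below it, so the groups overlapped. The log2 fold change was -0.18 (SE 0.0683, unadjusted p = 0.0168, adjusted p = 1 by edgeR). At E12.5 the KO change of Dll1 was -0.03 (95% interval -0.22 to 0.15), and the difference between the ages was -0.15 (-0.38 to 0.09). In E15.5 KO replicates 3 and 4, meningeal and mesenchymal markers summed to 187 and 186 CPM. They summed to 25 to 37 CPM in other E15.5 KO libraries and 23.3 to 107 CPM in wild type. Of 11 hem and choroid plexus markers 0 were below wild type (median log2 0.56), and of 12 meningeal and mesenchymal ones 1 (0.67). Of 11 ventral telencephalon markers 10 were below it (-0.16), and of 6 intermediate progenitor ones 6 (-0.14), with none called. Their part in the Dll1 value was not tested.

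In Tg(Kat6b) tissue at E12.5, all 9 members stood below wild type, where 52.6% of all genes did, with a median log2 fold change of -0.19. Notch2 was at 8.80, 7.58, 8.68 and 7.20 RPKM in Tg(Kat6b) against 8.40, 9.38, 11.6 and 11.4 in wild type. Dll4 was at 1.30, 1.36, 1.18 and 1.13 RPKM against 1.33, 1.66, 1.69 and 1.80. Jag1 was at 6.98, 6.00, 7.31 and 7.32 RPKM against 8.20, 7.75, 8.74 and 7.93. Notch2 and Dll4 overlapped between genotypes, and every Tg(Kat6b) library of Jag1 lay below every wild-type library, where 2.82% of all genes had no overlap in either direction. By edgeR the log2 fold changes were -0.34 (SE 0.122, unadjusted p = 0.0135, adjusted p = 0.724) for Notch2, -0.39 (SE 0.183, unadjusted p = 0.0497, adjusted p = 0.747) for Dll4 and -0.24 (SE 0.106, unadjusted p = 0.0373, adjusted p = 0.743) for Jag1, none past the threshold. The 15 endothelial markers were below wild type as well in all 15 cases, with a median of -0.23 and none called. They summed to 264 to 315 CPM in Tg(Kat6b) against 293 to 426 CPM in wild type with none at 0. Some other marker lists were lower too, with none called: 8 of 10 pericyte (median -0.33), 10 of 12 meningeal and mesenchymal (-0.64), 7 of 8 erythroid (-0.66), 6 of 7 microglial (-0.33) and 5 of 5 diencephalon, midbrain and hindbrain markers (-0.71) were below wild type. Others were not: 1 of 11 ventral telencephalon (0.22), 3 of 10 neuronal (0.12) and 5 of 10 apical progenitor markers (0.02) were below wild type, with none called. The part of these markers in the members' values was not tested. Leaving out 1 library at a time left 7 to 9 members below wild type, 7 without wild-type replicate 3 or Tg(Kat6b) replicate 2, 8 without wild-type replicate 1 and 9 without wild-type replicate 4.

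At E15.5, 7 of 9 members stood above wild type in Tg(Kat6b), with 49% of all genes below, and none was called. The median was 0.18, from -0.12 for Dll4 to 0.26 for Notch1. The Tg(Kat6b) effect at E15.5 minus that at E12.5 was above 0 for all 9 members (8 without E12.5 wild-type replicate 1 or Tg(Kat6b) replicate 2), with 47.6% of all genes below 0. It was 0.53 for Notch2 (95% interval 0.16 to 0.90, unadjusted p = 0.00743, adjusted p = 1 by edgeR) and 0.32 for Dll1 (0.03 to 0.60, unadjusted p = 0.0304, adjusted p = 1), so 2 of 9 members had an unadjusted p below 0.05, against 4.04% of all genes, and 0 were called, against 0% of all genes. In the KO the same difference had 0 of 9 called and 0 with an unadjusted p below 0.05, where 0% and 2.72% of all genes did, and DESeq2 and limma-voom called 0 members in both differences. The comparisons at both ages use separate wild-type libraries. However, the Tg(Kat6b) difference and the difference between the wild-type age changes share the same FVBxBALB/c wild-type libraries. Their values above 0 are therefore not separate observations. The fall of Notch2 over age in FVBxBALB/c wild type uses those libraries too.

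**Figure D4:**
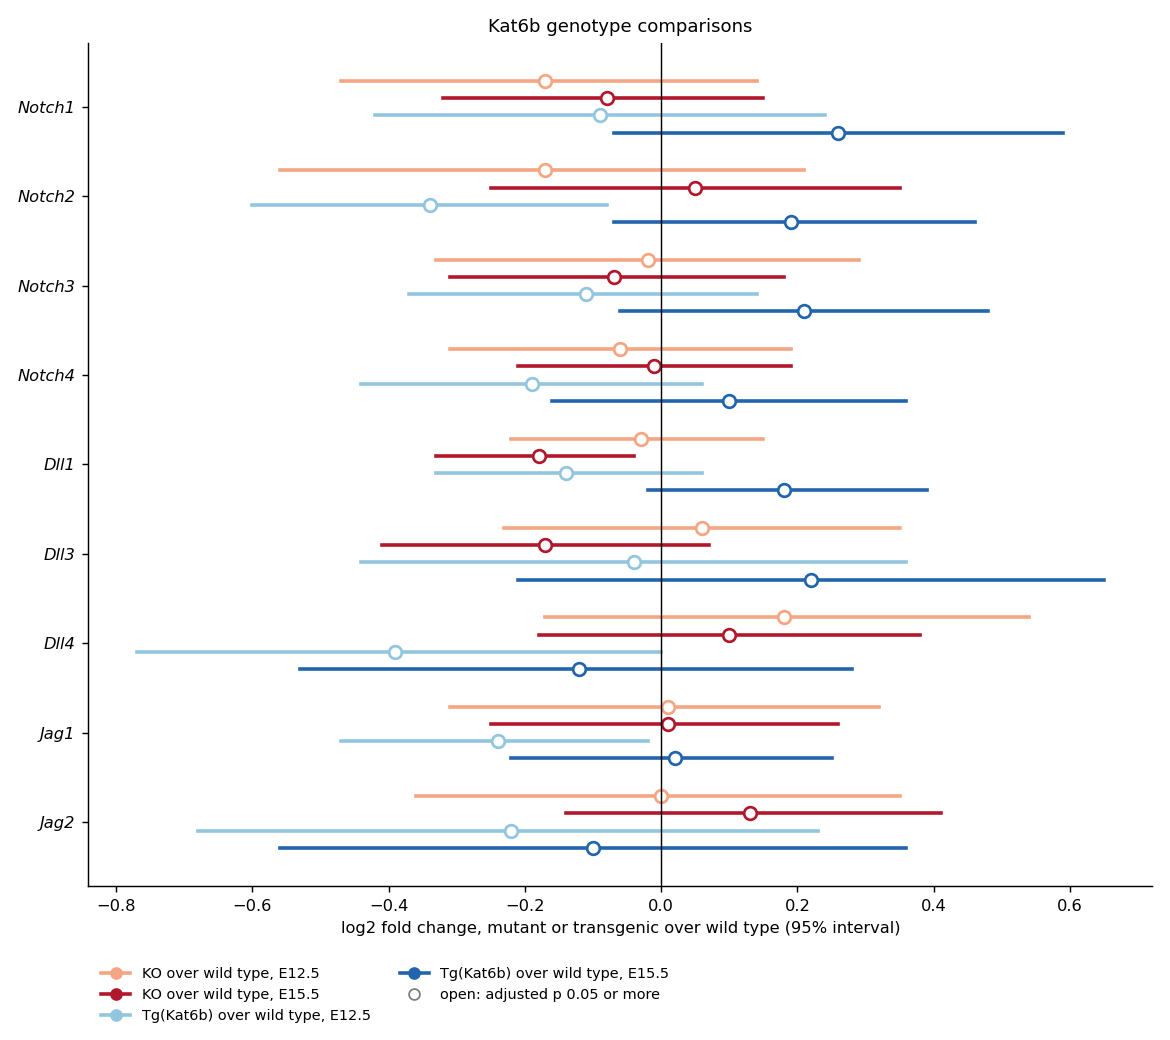
Log2 fold change of each member in Kat6b KO or Tg(Kat6b) over wild type (horizontal axis) at E12.5 and E15.5, with 95% intervals. Every point is open because none passed an adjusted p of 0.05 by edgeR, and the intervals of Dll1 in KO at E15.5 and of Notch2 and Jag1 in Tg(Kat6b) at E12.5 do not reach 0. That of Dll4 in Tg(Kat6b) at E12.5 ends at 0 when rounded (unadjusted p = 0.0497 by edgeR).

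The other pathway genes gave the same count by genotype: 0 of 45 were called in any of the 4 comparisons by edgeR. At an unadjusted p below 0.05 there were 5 in KO at E12.5, 4 in KO at E15.5, 0 in Tg(Kat6b) at E12.5 and 1 in Tg(Kat6b) at E15.5, where 5.22%, 2.83%, 6.68% and 2.22% of all genes had such a p. Hes1 stood at 36.6 RPKM in E12.5 KO against 44.3 in wild type (log2 -0.28, unadjusted p = 0.0349, adjusted p = 0.881) and at 14.9 RPKM in E15.5 KO against 18.1 (log2 -0.28, unadjusted p = 0.00987, adjusted p = 1). The list of 6 target genes as a whole was near 0 in KO, with a median log2 fold change of -0.03 at E12.5 (3 below 0) and -0.08 at E15.5 (4 below 0). Mib1 stood at 16.3 RPKM in E12.5 KO against 22.3 in wild type (log2 -0.46, unadjusted p = 0.0128, adjusted p = 0.881). At E15.5 Mib1 was at 11.2 RPKM in KO against 11.1 in wild type (log2 0.02, unadjusted p = 0.874 by edgeR).

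Within groups, the members also varied together to different degrees. Pearson's r of the deviations from the group means over 32 libraries ranged over 36 pairs from -0.39 for Notch2 with Jag2 to 0.76 for Notch3 with Jag1. It was 0.72 for Notch1 with Notch3, 0.70 for Dll3 with Jag2, 0.64 for Notch1 with Dll1 and 0.63 for the endothelial pair Notch4 and Dll4. Points share a library, its depth and its tissue makeup, so this is a description. The genes most like Notch1 in this measure, of 15447 genes tested in both backgrounds, were Zfp236 (0.90), Kdm3b (0.88) and Crebbp (0.87). Those most like Dll1 were Sema5b (0.89), Gmeb2 (0.82) and Tmem94 (0.77), those most like Dll3 were Rgs8, Abat and Hhip (0.88 each), and those most like Jag2 were Dzip1, Slc12a5 and Rian (0.91 each). Those most like Dll4 were Rgs3, Gja4 and Ankrd37 (0.76 each). For Notch2 they were Itgav (0.84), Gli3 (0.83) and Ston2 (0.82), for Notch3 Kirrel (0.83), Zc3hav1l (0.82) and Ptprf (0.80), for Notch4 Zc2hc1c (0.74), Unc45b (0.71) and Manba (0.68), and for Jag1 Dcbld2 (0.83), Bmp2k (0.79) and Igf1r (0.77). Some of these r differed between the backgrounds. Jag1 with Igf1r was at 0.90 in C57BL/6 and 0.54 in FVBxBALB/c, and the genes like Notch2 at 0.91 to 0.94 and 0.63 to 0.68. Dll1 with Gmeb2 went the other way, at 0.64 in C57BL/6 and 0.93 in FVBxBALB/c.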

How the data were processed

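RNA was sequenced from 32 libraries in 8 groups by background, age and Kat6b genotype. Per the submitters' processing notes, base calls were made with bcl2fastq and reads per gene were counted with featureCounts on mm10. The authors deposited 1 file of raw, whole-number counts for each library. The sources used here do not name the aligner, annotation or strand setting, so overlapping and antisense genes may share reads. Of 27179 rows, 848 named no gene (0.305 to 2.0% of counts) and were left out.

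Counts were analysed per background in edgeR 4.0.16 (R 4.3.3): filterByExpr (minimum count 10, total 15), TMM scaling, and a robust quasi-likelihood fit of 4 group means with 12 residual degrees of freedom, with 16118 genes tested in C57BL/6 mice and 15556 in the FVBxBALB/c mice. Adjusted p is by Benjamini-Hochberg over all tested genes, called below 0.05, and tests are 2-sided. SE is the absolute log2 fold change over the square root of F, and intervals are at 95%. The difference between wild-type age changes came from a fit of all libraries. RPKM and CPM use TMM-effective totals. Pathway and marker lists and the named-gene rule (all members, up to 3 called genes per list by smallest p, plus Hes1, Hes5, Lfng, Rbpj and Mib1) were used, and the members, lists and tests were chosen with earlier results of these data known. The edgeR step was tested on simulated data. Alternatives were DESeq2 1.42.0, limma-voom (limma 3.58.1), other scaling, no filter, other fits, blocks and leaving out libraries. In C57BL/6 a replicate number marks a shared litter per the labels, so the numbers pair samples (deviation correlations -0.452 to 0.441); in FVBxBALB/c no litter is given. E12.5 C57BL/6 replicates 3 and 4 share a litter, and p-values treat libraries as independent. FVBxBALB/c labels do not say that libraries are separate embryos, so p-values there measure the spread between these libraries. Values of 1 gene of the lists are not reported here.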

Additional observations from a re-analysis of the deposited data

Results flagged for a closer look

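In 4 of 54 gene and group pairs with 4 or 5 libraries, 1 library lay far from the rest of its group, where chance alone gives about 1 in 20. Notch1 at 12.7 RPKM and Notch2 at 5.94 RPKM were lowest in E15.5 C57BL/6 wild-type replicate 3, while its 4 partners ran from 17.9 to 18.9 and from 8.90 to 9.40. Notch3 at 11.2 RPKM was lowest in E12.5 Tg(Kat6b) replicate 2, with its partners at 14.3 to 14.8. Notch4 at 1.93 RPKM was highest in E15.5 Tg(Kat6b) replicate 2, with its partners at 1.52 to 1.54.

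Notch1, Notch2 and Notch3 are long genes of 9489, 10506 and 7943 counted bases. A measure chosen after the values were seen, the median log2 deviation of the 683 genes of at least 8000 bases from their group means (Notch1 and Notch2 among them), was -0.205 in E15.5 C57BL/6 wild-type replicate 3 and -0.017 to 0.098 in its partners. It was -0.152 in E12.5 Tg(Kat6b) replicate 2 and -0.092 to 0.285 in its partners. The measure was also low where no member was flagged, at -0.292 in E12.5 FVBxBALB/c wild-type replicate 4 and -0.219 in E15.5 FVBxBALB/c wild-type replicate 3. In E15.5 C57BL/6 wild-type replicate 3, hem and choroid plexus markers summed to 651 CPM against 24 to 361 in its partners. Its meningeal and mesenchymal markers summed to 107 CPM against 23.3 to 35.7. The part of the long-gene measure or of these markers in the low values was not tested.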

How the results depend on the processing

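Over 190 recomputed counts of called members, each stayed within 1.5 times the reported one: 6 to 7 for the age comparison in KO, 6 to 7 in C57BL/6 wild type, 5 to 7 in Tg(Kat6b), 7 in FVBxBALB/c wild type, and 0 in all genotype comparisons and differences. Leaving out 1 library gave the same ranges. With the replicate number as a block, or the litter in C57BL/6, 0 members were called in each genotype comparison, and over all genes 0 in KO at E12.5, 1 in KO at E15.5, 2 in Tg(Kat6b) at E12.5 and 3 at E15.5, so the block changed no member's call. In FVBxBALB/c libraries share only a number, with deviation correlations of -0.202 to 0.652. Over all settings the genotype comparisons called 0 to 5, 0 to 7, 2 to 6 and 2 to 7 genes in KO at E12.5, KO at E15.5, Tg(Kat6b) at E12.5 and Tg(Kat6b) at E15.5, against 1, 0, 2 and 2 as reported, and the difference between the wild-type age changes called 1 to 16, against 5. Of 1710 member values recomputed, 19 lost and 1 gained a call, 18 of the losses being Notch4 over age and 1 Notch1 in KO without E12.5 replicate 1. No called value changed sign. Notch4 over age stayed called in 8 of 16 settings in KO, 5 of 14 in Tg(Kat6b), 15 of 16 in C57BL/6 wild type and 14 of 14 in FVBxBALB/c wild type. Depth limits Dll4 most, with 39 to 317 counts per library.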
